A study of Homo sapiens with 6 samples.

Results

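The genes described are 10 members of the SRSF family, SRSF1 to SRSF7, SRSF9, SRSF10 and SRSF11. They were chosen by name: an SRSF symbol had to stand among the genes of a locus in the merged expression table. That table held 12 SRSF symbols in 13 of its 117001 loci, and the libraries together held 24166 genes. SRSF8 and SRSF12 also matched by name but are described only with the related genes, at 0.713 to 5.99 FPKM per library. FPKM relates the fragments of a transcript to its length and to the mapped fragments of the library, so levels can be compared between genes of different length. All 6 libraries came from HEK293, a transformed human embryonic kidney cell line. The 3 controls were left untreated, with culture at 37°C, and the 3 heat shock samples were aliquots kept for 30 minutes in a tube in a bath set to 45°C. The labels name no other agent in either group. RNA was depleted of ribosomal RNA, and nothing in the labels ties the samples to separate cultures, so p-values measure the spread between these samples, which may be technical.

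SR proteins are RNA-binding splicing factors with a tail rich in arginine and serine. They bind exonic enhancers, help the spliceosome choose splice sites, and several also carry mRNA out of the nucleus. CLK and SRPK kinases phosphorylate the tail, and this sets where the protein sits and whether it can act. Heat shock is known to change this phosphorylation, SRSF10 being the best-known case, and to bring some SR proteins to nuclear stress bodies. SR genes also limit their own output through transcripts that are sent to nonsense-mediated decay. Some hold a poison exon, which puts a premature stop codon in the message. Others have an extra intron removed from the 3′ untranslated region.

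The poison exons give a concrete picture of this layout. The 4 shown are those that an exon of a transcript with FPKM in these libraries overlapped, each in its longest form. Each sequence runs from the first base of the exon to the premature stop codon, which is in capitals (GRCh37, strand of the gene). GENCODE gives these exons in decay transcripts, and they overlap no exon of a protein-coding transcript. Splice sites of the SRSF3, SRSF6 and SRSF11 exons also occur in GENCODE transcripts with a retained intron or without a defined coding sequence. The SRSF3 exon lies at chr6:36567598-36568053, the SRSF6 exon at chr20:42087793-42088060, the SRSF7 exon at chr2:38976040-38976488 and the SRSF11 exon at chr1:70697542-70697658.
SRSF3: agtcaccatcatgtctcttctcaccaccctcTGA
SRSF6: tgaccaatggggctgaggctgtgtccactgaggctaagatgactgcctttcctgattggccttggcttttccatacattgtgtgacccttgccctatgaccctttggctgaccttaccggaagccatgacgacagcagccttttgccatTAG
SRSF7: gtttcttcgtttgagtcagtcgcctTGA
SRSF11: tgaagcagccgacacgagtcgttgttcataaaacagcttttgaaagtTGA

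The levels as deposited were spread as widely within the groups as between them. Heat shock 1 and 2 were the highest libraries and heat shock 3 lay beside the controls for every one of the 10 genes, so the groups overlapped for all 10. SRSF9, which antagonises and shares targets with SRSF1, was the most abundant, at 98.9, 32.4 and 66.3 FPKM in the controls against 154, 157 and 33.8 FPKM after heat shock. SRSF2 (SC35), a constitutive factor that also acts on transcription, stood at 48.6, 22.5 and 49.3 FPKM in the controls against 107, 123 and 23.7 FPKM after heat shock. SRSF3, the smallest SR protein and an export adaptor, had 30.2, 13.0 and 32.6 FPKM against 69.7, 78.5 and 16.4 FPKM. For these 3 genes control 2 was the lowest library and heat shock 3 the next.

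SRSF5 and SRSF6, closely related factors, gave the same picture. SRSF5 had 27.5, 12.3 and 27.1 FPKM in the controls against 58.5, 74.8 and 15.5 FPKM after heat shock. SRSF6 had 16.7, 6.98 and 15.7 FPKM in the controls against 37.2, 37.4 and 8.63 FPKM after heat shock. SRSF4, another close relative, had 15.7, 8.31 and 22.5 FPKM against 47.8, 37.5 and 11 FPKM, and in each of the 3 genes heat shock 3 lay inside the range of the controls.

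SRSF10, the factor whose protein turns into a general splicing repressor when heat strips it of phosphate, had 23.0, 11.1 and 24.7 FPKM in the controls against 74.5, 55.3 and 10.98 FPKM after heat shock. Here heat shock 3 was slightly below the lowest control. SRSF7, an export adaptor with a zinc knuckle, had 17.7, 8.93 and 24.4 FPKM in the controls against 45.5, 61.8 and 11.2 FPKM after heat shock. SRSF1 (SF2/ASF), the prototype of the family, had 12.5, 5.86 and 11.3 FPKM against 29.01, 32.6 and 6.42 FPKM. SRSF11, a more distant member, was the least abundant, at 12.2, 4.63 and 11.7 FPKM against 25.8, 28.5 and 6.46 FPKM. Every gene therefore had 2 high heat shock libraries and 1 at control level.

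The fold changes on the log2(FPKM + 1) scale ran from 0.64 (SRSF9) to 0.97 (SRSF7), with a median of 0.90, while the median of all 13067 genes tested was 0.45. None of the 10 genes passed the limma test at an adjusted p under 0.05 and over 2-fold, where 0.023% of all genes tested did, and none reached an unadjusted p under 0.05, where 2.06% of all genes were higher and 1.63% lower. The adjusted p-values ran from 0.709 to 0.738. The intervals were wide: for SRSF7 the fold change was 1.96, with a 95% interval from 0.527 to 7.29, and for SRSF9 it was 1.56, from 0.365 to 6.67. None of the 10 genes had groups that did not overlap, against 3.75% of all genes with every heat shock library higher and 2.24% with every one lower. Without heat shock 3, 9 of the 10 genes reached an unadjusted p under 0.05 (39.8% of all genes were then higher at that level). Their log2 fold changes ran from 1.49 (SRSF4) to 1.74 (SRSF10), and SRSF9, which did not reach it, had 1.37. None passed the adjusted threshold (lowest adjusted p = 0.0778, limma, 0.0765% of all genes called).

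The authors' pooled FPKM of the same loci, from their merged table, were larger after heat shock than in any single library here. They gave SRSF9 80.0 FPKM for control and 402 FPKM for heat shock, SRSF2 54.7 and 247 FPKM, and SRSF1 23.7 and 96.4 FPKM. The per-library sums used here reached at most 157, 123 and 32.6 FPKM for these genes, and the pooled table was normalised separately, so no test spans both sources.

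**Figure D1:**
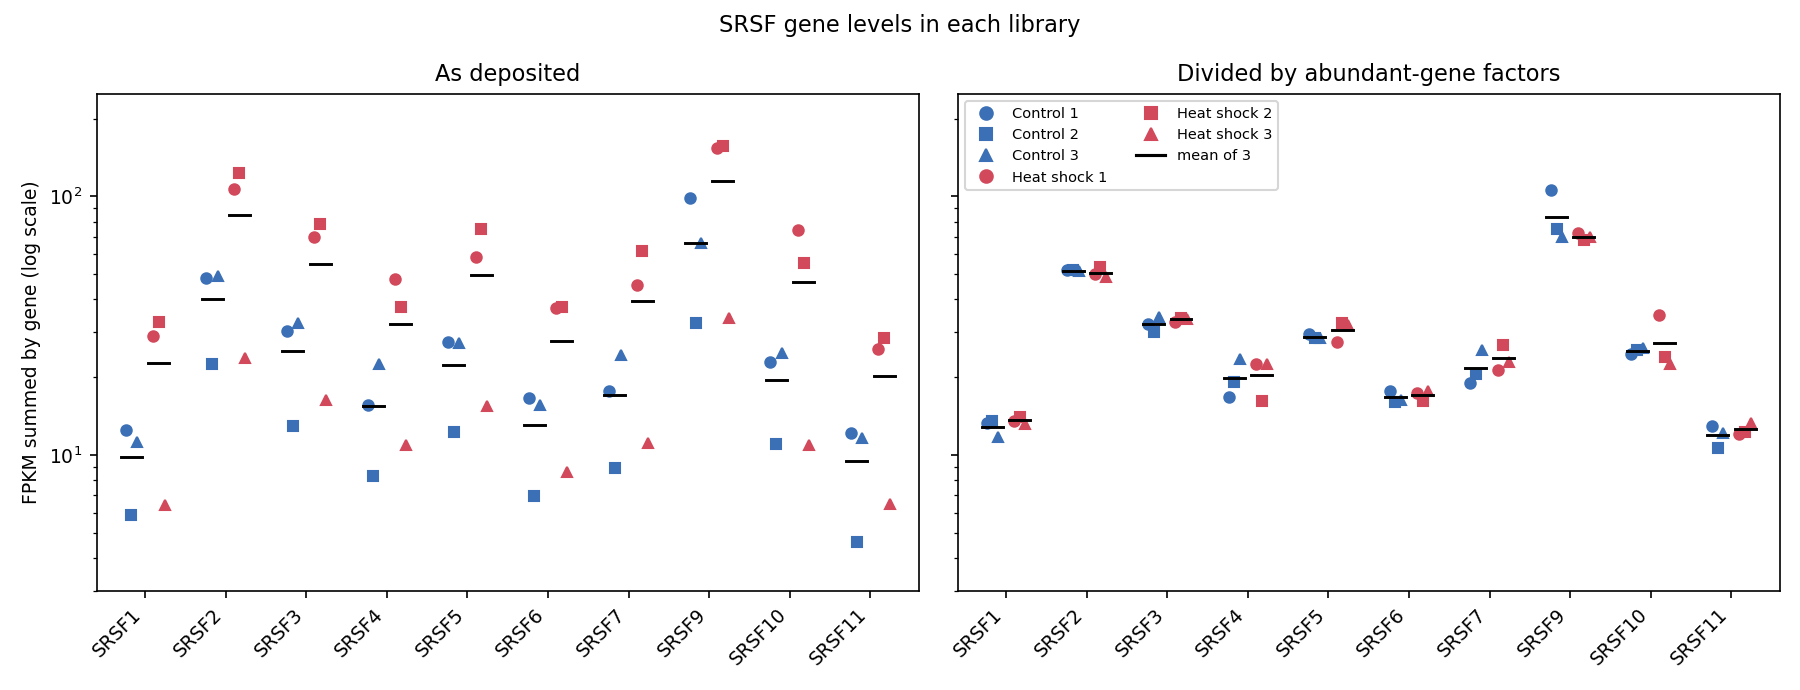
Level of each SRSF gene in every library, as FPKM on a log axis, with points for libraries (blue control, red heat shock) and a bar for the mean of 3. As deposited (left) heat shock 1 and 2 lie above the rest, and after division by the abundant-gene factors (right) SRSF2 spans only 48.7 to 53.2.

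The libraries differed by a common factor. Taken over 998 abundant genes, those with more than 10 FPKM in each library, of which 5 are SRSF genes, the median-of-ratios factor was 0.937, 0.434 and 0.956 in the controls against 2.13, 2.31 and 0.487 after heat shock, as large a spread within groups as between them. Relative read depth, which followed another order, was 2.03, 1.81 and 1 in the controls against 1.24, 1.31 and 1.56 after heat shock. Single-exon transcripts with no strand numbered 45600 to 194489 in the controls, 17304 and 30334 in heat shock 1 and 2 and 151889 in heat shock 3. As a check of the treatment, all 8 heat shock genes listed had a scaled log2 fold change above 0 and 4 had an unadjusted p under 0.05, but none was called. The 3 most abundant, the chaperones HSPA8, HSPB1 and HSP90AA1, had scaled log2 fold changes of 0.33, 0.28 and 0.14, and the groups of HSPB1, HSP90AA1 and BAG3 overlapped. The largest value was that of DNAJB1. This gene, a heat-inducible co-chaperone, stood at 7.81, 11.2 and 9.60 scaled FPKM in the controls against 56.8, 50.2 and 69.8 after heat shock (adjusted p = 0.127, limma). Of 8 HEK293 markers VIM, MYC and SOX4 were the highest, at 85.3 to 929, 6.61 to 36.03 and 3.01 to 17.1 FPKM as deposited. PAX2 ranged from 0.320 to 4.26 FPKM and LHX1 was under 1 FPKM in 5 of 6 libraries. PTPRC and CD3E of leukocytes, HBB of erythroid cells, ALB of hepatocytes and PECAM1 of endothelial cells stayed under 1 FPKM in every library. COL1A1 of fibroblasts was at 3.23 to 4.16 FPKM. In bulk RNA of this kind, fewer expressing cells and less RNA per cell cannot be told apart.

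After division by these factors the SRSF genes were close to level across all 6 libraries. SRSF2 stood at 51.9, 51.8 and 51.5 scaled FPKM in the controls against 50.2, 53.2 and 48.7 after heat shock, a highest-to-lowest ratio of 1.09. SRSF6 spanned 16.1 to 17.8, SRSF3 29.9 to 34.1, SRSF1 11.8 to 14.1, SRSF5 27.5 to 32.3 and SRSF11 10.7 to 13.3. The coefficient of variation over the 6 libraries was 3.08% for SRSF2 and had a median of 7.13% over the 10 genes, against 25.7% over the 2932 genes whose mean reached 10 FPKM. As deposited the same medians were 68.7% and 68.8%. SRSF2 ranked in the lowest 0.955% of those 2932 genes by this measure, SRSF6 in the lowest 4.02% and SRSF3 in the lowest 4.54%. Such a low spread was not particular to the family. Of the hnRNP splicing genes, HNRNPA3 spanned 30.7 to 34.0 and HNRNPK 62.1 to 70.2 scaled FPKM, both named after their values were seen. HNRNPH1, at 112 to 386, went the other way.

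Of the 4 genes that varied more, SRSF9 and SRSF10 did so through a single library each. SRSF9 stood at 105.5 scaled FPKM in control 1 and between 68.0 and 74.6 in the other 5. SRSF10 stood at 35.0 in heat shock 1 and between 22.6 and 25.9 elsewhere. SRSF7 ranged from 18.9 to 26.7 and SRSF4 from 16.2 to 23.6, with no order by group. Assembled transcripts carried 78.6% of SRSF9 in control 1, but also 64.4% and 68.9% in controls 2 and 3, where its level was not raised. For SRSF10 they carried 45.7% in heat shock 1 and 0% to 22.1% elsewhere, and their part in the level was not tested.

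On the scaled values the log2 fold changes ran from -0.22 (SRSF9) to 0.13 (SRSF7), with a median of 0.07, where the median of all genes was -0.21. The intervals were narrow enough to bound the change. For SRSF2 the fold change was 0.980 with a 95% interval from 0.839 to 1.14, for SRSF3 it was 1.04 (0.869 to 1.25) and for SRSF9 it was 0.857 (0.638 to 1.15). The widest upper bound of the 10 was 1.45, for SRSF7, SRSF10 and SRSF4, and the lowest bound was that of SRSF9. The adjusted p-values were 0.910 or above (limma, 0% of all genes called), no gene had an unadjusted p under 0.05 (0.75% of all genes higher, 2.45% lower), and the groups of all 10 overlapped (1.96% of all genes lay wholly higher, 5.35% wholly lower). Exact permutation p-values, two-sided, were 0.3 to 1, where 3 against 3 libraries cannot go below 0.1. Without control 1 the SRSF9 value moved from -0.22 to -0.04. A p-value above the threshold does not show that levels were equal. The intervals hold only if most abundant genes kept their level, which was not tested.

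**Figure D2:**
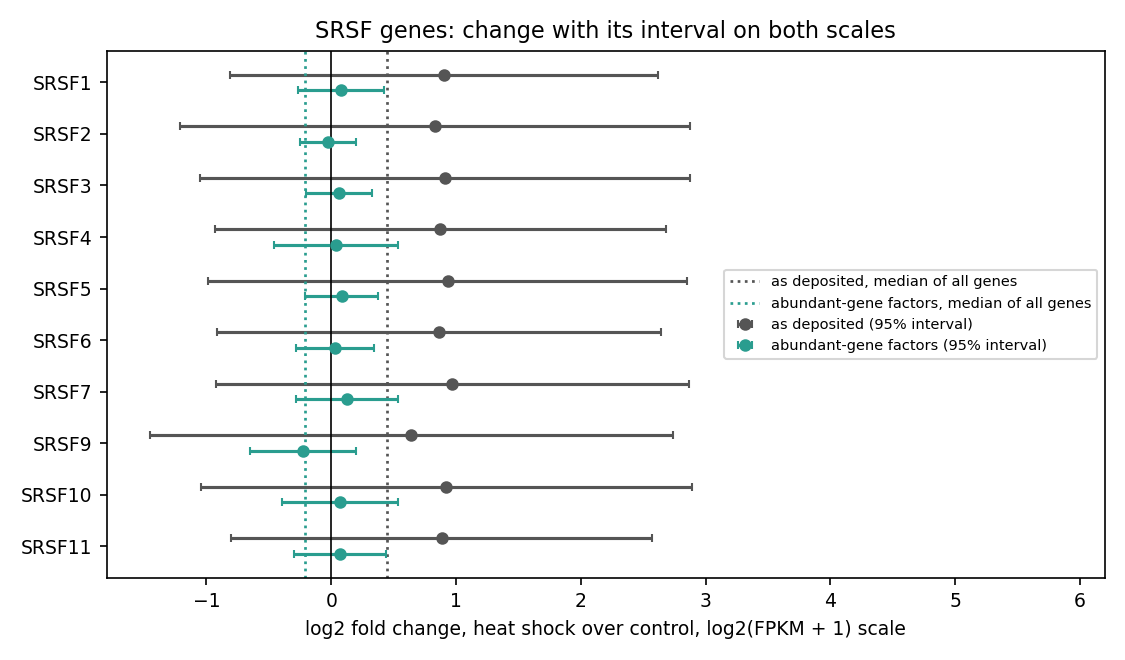
Log2 fold change of each SRSF gene, heat shock over control, with its 95% interval from limma, as deposited (grey) and after abundant-gene factors (green), with dotted lines at the median of all genes on each scale. All 20 intervals include 0, and the scaled ones are much narrower.

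The order of the levels was largely kept. By mean scaled FPKM it ran SRSF9 (76.6 ± 14.4, SD, n = 6), SRSF2 (51.2 ± 1.58), SRSF3 (32.8 ± 1.59), SRSF5 (29.7 ± 2.02), SRSF10 (26.2 ± 4.44), SRSF7 (22.7 ± 2.99), SRSF4 (20.1 ± 3.19), SRSF6 (16.9 ± 0.799), SRSF1 (13.3 ± 0.787) and SRSF11 (12.3 ± 0.917). SRSF9 and SRSF2 came highest in this order in all 6 libraries, and SRSF3 followed them in all but heat shock 1, where SRSF10 was higher (35.0 against 32.7 scaled FPKM). The neighbours from SRSF3 down to SRSF6 overlapped pair by pair in their ranges, as did SRSF1 and SRSF11, where SRSF1 was the higher in 4 of 6 libraries. SRSF6 and SRSF1 did not overlap.

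Shares within the family need no scaling between libraries. SRSF9 made up 32.6%, 25.7% and 23.2% of the 10 genes' summed FPKM in the controls against 23.7%, 22.9% and 23.5% after heat shock. SRSF2 made up 16.1%, 17.8% and 17.3%, then 16.5%, 17.9% and 16.4%. SRSF6 held the tightest share in the controls, 5.51% ± 0.027 (SD, n = 3), against 5.72% ± 0.268 after heat shock. With all transcripts no gene had groups that did not overlap. The largest difference of means was that of SRSF9, -3.83 percentage points (exact permutation p = 0.3, 0.667 after adjustment over the 10 genes), and it came from control 1. On RefSeq transcripts alone 5 of the 10 genes had groups that did not overlap (exact permutation p = 0.1 each, 0.2 after adjustment), and the SRSF9 difference had the opposite sign, 12.2% ± 1.81 against 29.8% ± 1.49 (SD, n = 3 each). SRSF6 was higher there too, and SRSF2, SRSF10 and SRSF11 were lower. Shares of a library trade off, so a rise of SRSF9 lowers the others and the 5 are not separate results. No count over all genes stands beside this one. The count rests on the split between RefSeq and assembled transcripts described next. The summed scaled level of the 10 genes lay between 290 and 323 in every library.

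**Figure D3:**
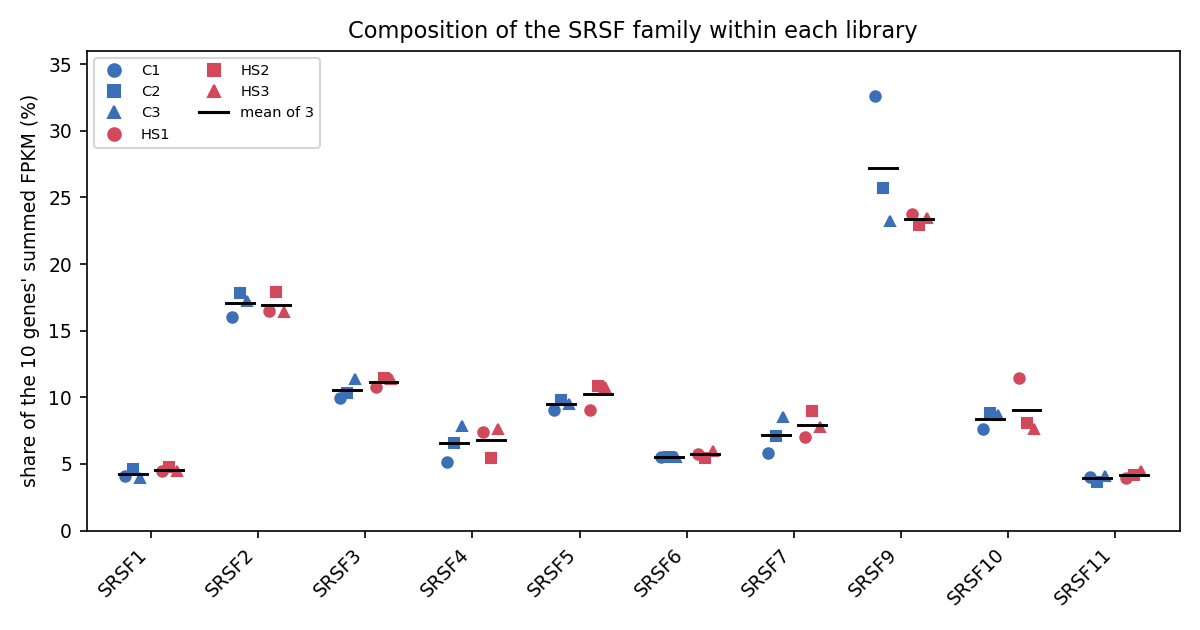
Share of each gene in the summed FPKM of the 10 SRSF genes, in percent, with a point per library (C control, HS heat shock) and a bar for the mean of 3. The groups overlap for every gene, and SRSF9 in control 1, at 32.6%, is the point farthest from its neighbours.

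Within the genes the transcript structure differed far more between libraries than the totals did. Cufflinks split each gene's FPKM over RefSeq transcripts and transcripts assembled from the reads of that library. The 10 genes had 51 assembled transcripts in all, 25 in the controls against 26 after heat shock, and 84 distinct introns with FPKM. Of these introns 61 belong to a RefSeq coding isoform. The other 23 all start with GT and end with AG, 14 are in GENCODE, and 16 were seen in 1 library only.

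SRSF9 showed the clearest split by group. Its only RefSeq transcript, NM_003769, carried 21.4%, 35.6% and 31.1% of the gene in the controls against 100% in all 3 heat shock libraries. In FPKM that was 21.2, 11.5 and 20.7 against 154, 157 and 33.8. The remaining control signal joined exon 3 to a different 5′ splice site in each control. Control 1 used a site that takes 75 bases off the end of the second exon of 161 bases (77.7 FPKM, Cufflinks interval 71.6 to 83.8). This assembled transcript began at 120903584, inside the second exon, and held no first exon. Control 3 used a site that takes off 129 bases (45.7 FPKM, 40.1 to 51.3), which GENCODE holds in a coding transcript. Control 2 left the second exon out and began the intron 81 bases upstream in the first exon (20.9 FPKM, 17.9 to 23.8). The losses of 75 and 129 bases are multiples of 3 and the 242 bases lost in control 2 are not. For control 1 this describes the splice site alone, since the assembled transcript lacked the first exon. The splice sites are shown so that the alternatives can be set beside the annotated one: each line gives the last 3 exon bases and the first 6 intron bases, with the GT of the intron in capitals (GRCh37, chr12, minus strand, intron ends 120903429, 120903504, 120903558 and 120907305 in this order).
annotated: cagGTatgt
control 1: gagGTcggg
control 3: atgGTtatg
control 2: caaGTacgg

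All 4 introns end at the same 3′ splice site, at 120901926. In the added fit that takes in genes with 1 RefSeq transcript, the SRSF9 share was 70.6 percentage points higher (SE 22.2, 95% interval 21.9 to 119, unadjusted p = 0.00859, adjusted p = 0.768, limma), so it did not pass (1.45% of shares had an unadjusted p under 0.05 and were higher, 0.539% lower). The groups did not overlap, as for 3.48% of the 16328 transcript shares in that fit (2.01% in the other direction). The exact permutation p was 0.1, the lowest that 3 against 3 allows. No alternative site was shared by 2 controls, and GENCODE lacks the sites of control 1 and control 2. Assembled transcripts took a larger share of all genes in the 3 controls and in heat shock 3 (medians of 64.1% to 80.4%) than in heat shock 1 and 2 (24.2% and 23.6%). Heat shock 3 nevertheless had none at SRSF9. What part this difference in assembly had in the result was not tested.

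**Figure D4:**
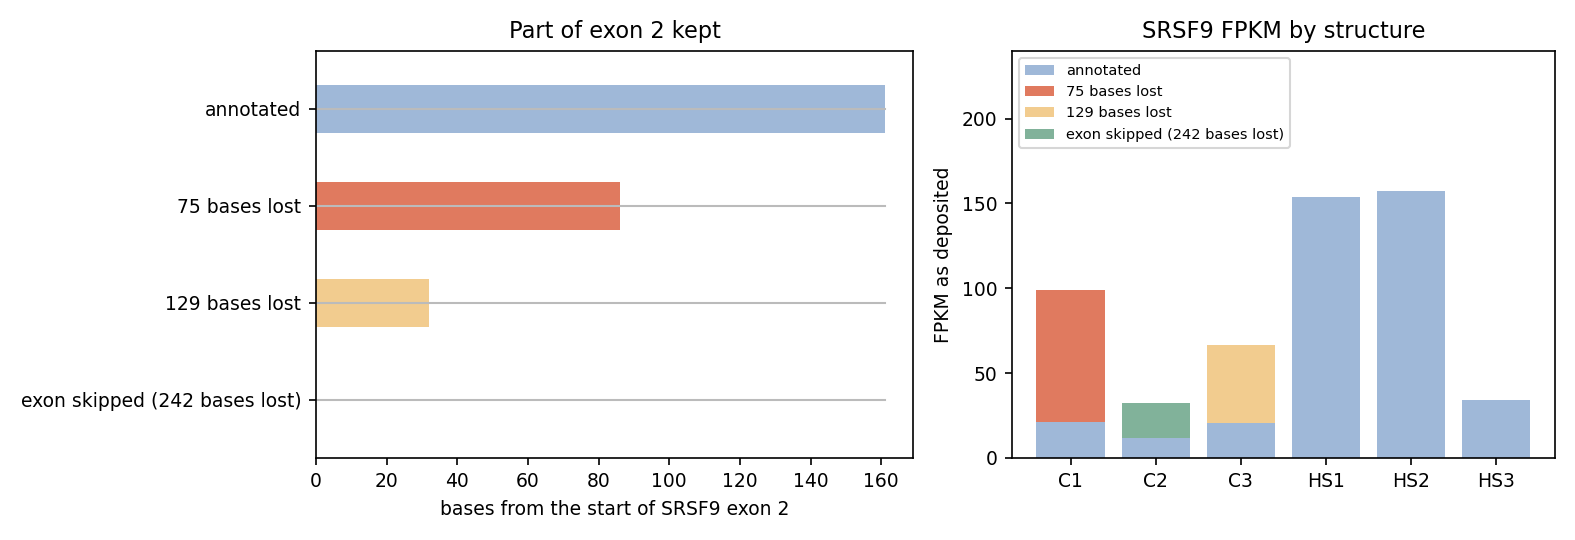
SRSF9 structures: the bases of exon 2 kept by each 5′ splice site, drawn to scale from the start of the exon (left), and the FPKM of each structure per library as deposited (right). The 3 controls each hold a different shortened form and the heat shock libraries hold the annotated form alone. The control 1 form began inside exon 2, although its bar is drawn from the start of the exon.

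SRSF6 split the groups as well. Its coding transcript NM_006275 carried 73.7%, 40.5% and 12.9% of the gene in the controls against 100% in each heat shock library. All of the rest was on assembled transcripts that begin inside an intron. In 3 of the 4 this was the intron chr20:42087150-42088410, which holds the SRSF6 poison exon printed above. They began at 42087646 in control 1, at 42087674 in control 2 and at 42088190 in control 3, so the start was at a different base each time. Such transcripts lay lower in every heat shock library for 4.41% of all genes and higher for 1.74%. The poison exon lay within exons at 4.38 FPKM in control 1 and 1.66 FPKM in control 2, the latter spliced at its 3′ end, and was at 0 in the other 4 libraries. The share of NM_006275 was 57.6 percentage points higher (SE 20.1, 95% interval 13.8 to 101, unadjusted p = 0.014, adjusted p = 0.731, limma) and did not pass. It was 1 of 17 RefSeq isoforms of the family in this fit with an unadjusted p under 0.05, a level at which 1.57% of the 10397 isoform shares were higher and 0.567% lower. Groups did not overlap, as for 2.95% of isoform shares with higher values after heat shock, and the exact permutation p was 0.1.

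SRSF2 went the other way. NM_001195427 carried 100% of the gene in the 3 controls against 71.6%, 63.8% and 89.97% after heat shock. The difference was -24.9 percentage points (adjusted p = 0.731, unadjusted p = 0.0893, limma, 2.02% of isoform shares not overlapping in this direction). In heat shock 1 and 2 the remainder was a transcript that removes another intron near the 3′ end, chr17:74730645-74731142, at 30.4 FPKM (26.9 to 33.9) and 44.6 FPKM (40.3 to 48.8). GENCODE gives that intron in nonsense-mediated decay transcripts and in no coding one. It was at 0 in the 3 controls and in heat shock 3, where the remainder was NM_003016, which keeps the last intron of NM_001195427, at 2.38 FPKM. The splice sites of the decay-linked intron are shown with GT and AG in capitals.
SRSF2 5′ site: aagGTtatt
SRSF2 3′ site: tatgtatttttgtgcactAGgcg

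Because SRSF2 overlaps MFSD11 on the other strand and the libraries were prepared without strand marking as far as the labels say, reads of the neighbour cannot be set apart there. The scaled level of SRSF2 was 50.2 and 53.2 in the libraries with this intron removed and 48.7 to 51.9 in the others. GENCODE also names 11 pseudogenes after 6 of the 10 genes, 5 of them after SRSF3, and reads shared with such copies make the levels of these genes less certain.

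SRSF1 showed its decay-linked intron in every library. The intron chr17:56081363-56082283 lies in the 3′ untranslated region, and it was removed in transcripts of 5.14, 2.99 and 3.51 FPKM in the controls against 10.8, 14.7 and 2.80 FPKM after heat shock. With a further decay-linked intron in heat shock 1, such transcripts made up 41.1%, 51.1% and 31.2% of SRSF1 in the controls against 55.8%, 45.2% and 43.7% after heat shock, 41.1% ± 9.95 against 48.2% ± 6.60 (SD, n = 3 each, exact permutation p = 0.4). The groups overlapped. The coding isoform NM_006924 carried 44.2% to 68.8% of the gene. The non-coding NR_034041, which keeps a 200-base coding intron at chr17:56082962-56083161, carried 31.2% in control 3, 11.2% in heat shock 2 and 19.996% in heat shock 3 and was at 0 in the other libraries. Counting assembled transcripts as well, that intron was kept in 28.1%, 0% and 31.2% of SRSF1 in the controls against 18.7%, 11.2% and 19.996% after heat shock. These transcripts were also among the decay-linked ones, so the 2 sets of shares are not separate. In control 3 both shares were NR_034041 alone. In control 1 the kept share was an assembled transcript of 3.52 FPKM. The decay-linked share of control 2 was 1 assembled transcript of 7 exons that reached 56066268, partly through introns not in GENCODE.

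The other decay-linked forms were sporadic. The SRSF3 poison exon printed above appeared in heat shock 3 only, in NR_036610, at 1.56 FPKM and 9.53% of the gene. The coding isoform NM_003017 carried 100%, 75.5% and 100% of SRSF3 in the controls against 100%, 100% and 90.5% after heat shock. The SRSF7 poison exon held the 5′ end of assembled transcripts in control 3 (11.4 FPKM), heat shock 1 (14.7 FPKM) and heat shock 2 (28.96 FPKM), at 46.6%, 32.3% and 46.8% of the gene. They began 38 bases apart at most, between 38976072 and 38976110, and this was absent from the other 3 libraries. These starts lie downstream of the printed stretch, so the assembled transcripts lack its premature stop codon. In heat shock 1 the intron that follows the exon was also kept (0% spliced). SRSF11 transcripts with the poison exon spliced to the next exon had 1.74 FPKM in control 2 and 1.90 FPKM in control 3. None of these followed the groups.

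The remaining RefSeq non-coding isoforms, NR_036608 of SRSF2, NR_034009 of SRSF6 and NR_034035 of SRSF10, were listed at 0 in all 6 libraries. Whole coding introns were otherwise kept only in SRSF4 in control 2 (17.6%) and in SRSF2 in heat shock 3 (10.03%). No coding intron of the other 7 genes lay whole within an exon in any library. Of all 10924 genes with introns, 5.57% to 22.7% had such a transcript in a given library. That rate cannot be set against the 7, which are what remained once SRSF1, SRSF2 and SRSF4 were taken out. When 90% of an intron was enough, SRSF6 in control 2 reached 35.8%.

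The make-up of SRSF4, SRSF5, SRSF7 and SRSF10 differed from library to library, with libraries of both groups at either end. SRSF4 NM_005626 carried 100%, 82.4% and 7.79% in the controls against 18.9%, 100% and 17.7% after heat shock. In heat shock 1 most of the rest, 38.8 FPKM (35.7 to 42.0), was a transcript that leaves out the exon of 90 bases at chr1:29476615-29476704, a skip that GENCODE holds in a coding transcript. SRSF5 NM_006925 carried 100%, 83.6% and 0%, then 100%, 79.1% and 15.9%, and the whole of the gene in control 3 was 1 assembled transcript of 27.1 FPKM (24.2 to 30.1).

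SRSF10 is spread over several coding isoforms. NM_001191009 carried 55.5%, 22.0% and 55.0% in the controls against 39.9%, 40.6% and 39.8% after heat shock. NM_054016 carried 24.4%, 35.5% and 45.0% against 14.5%, 13.9% and 44.2%. SRSF7 NM_001031684 carried 82.7%, 68.9% and 53.4% against 67.7%, 53.2% and 100%. The groups overlapped for all 3 isoforms.

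SRSF11 had the reverse order of SRSF6 and SRSF9. NM_004768 carried 30.1%, 62.4% and 0% in the controls and 0% in every heat shock library, and NM_001190987 carried 15.2%, 0% and 26.9% against 21.9%, 0% and 0%. Assembled transcripts made up 54.7%, 37.6% and 73.1% in the controls against 78.1%, 100% and 100% after heat shock, so the groups did not overlap, as for 1.78% of genes in this direction and 4.38% in the other. The exact permutation p was 0.1. Much of this assembled share was not shortened. Assembled transcripts of 13 exons from 70671365, where GENCODE begins the gene, had 3.22 FPKM in control 1, 8.39 in heat shock 1 and 19.5 in heat shock 2. Heat shock 3 had such forms at 1.85 and 3.48 FPKM, both with Cufflinks intervals that begin at 0. In the heat shock libraries every SRSF11 intron with FPKM belonged to a RefSeq coding isoform. On RefSeq transcripts alone the log2 fold change of SRSF11 was -1.33, against 0.88 with all transcripts, and those of SRSF6 and SRSF9 were 2.17 and 2.38 (adjusted p = 0.801 for all 3, limma, 0.0139% of all genes called). SRSF6 and SRSF9 then had an unadjusted p under 0.05 (0.0481 and 0.0375), as did 3.5% of all genes with higher values.

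**Figure D5:**
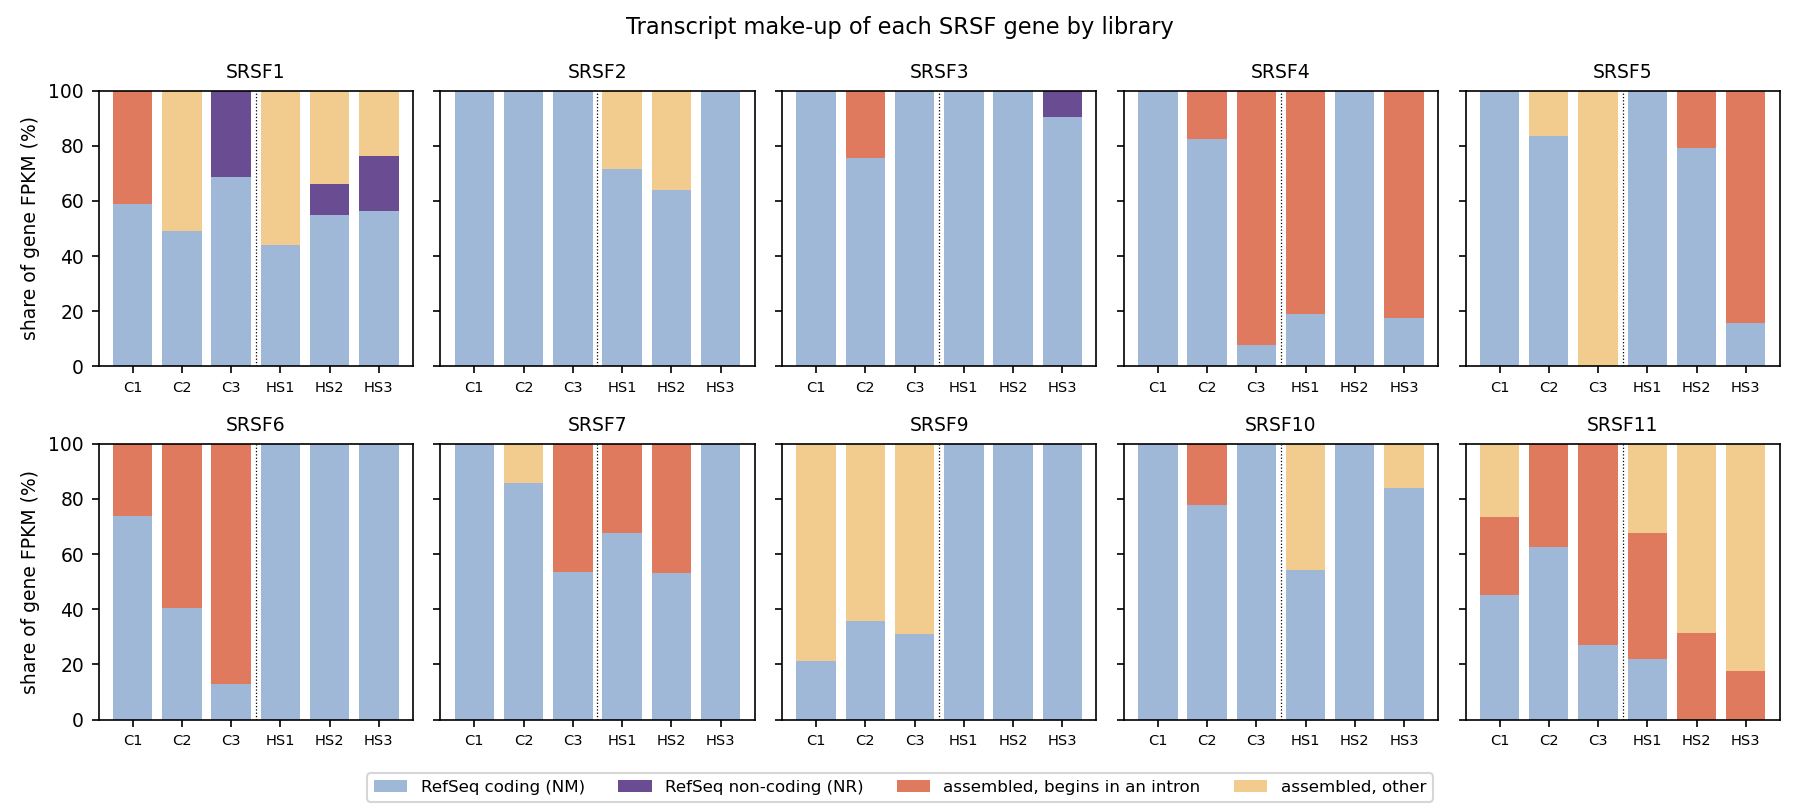
Share of each gene's FPKM, in percent, on RefSeq coding, RefSeq non-coding and assembled transcripts in each library (C control, HS heat shock, dotted line between groups). SRSF6 and SRSF9 have only RefSeq coding transcripts in all 3 heat shock libraries, and most other genes differ from library to library.

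Assembled transcripts often began inside introns. Of the 51, 31 did so, in 8 of the 10 genes, with 4, 6 and 7 in the controls against 4, 3 and 7 after heat shock. Of these 31 starts 54.8% lay in an intron that holds a GENCODE decay exon overlapping no exon of a protein-coding transcript. Such introns make up 34.4% of the intron bases of the family, 11 of 52 introns. No share over all genes stands beside these values, and many of the starts fell in the same few introns. Whether such introns hold more starts than others was not tested. The starts lay inside the decay exon itself in 3 cases, all in SRSF7. In SRSF11 the intron chr1:70694239-70697950 held a start in 5 of 6 libraries. Such starts were common in general: 88.1% of all genes with introns had at least 1 in some library.

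Promoters were searched for the letters of a heat shock element, from RefSeq sequence of GRCh38.p14 that runs 250 bases before to 50 bases after the start. Of the 10 genes 9 had an entry. None held GAANNTTC or TTCNNGAA, each of which reads the same on both strands, where 6.87% and 7.84% of 27305 promoters did. This says only that these letters are not in the window.

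The related genes were set on both scales as well, which shift all genes of a library alike. Of 22 SR-related genes 20 had a log2 fold change above 0 as deposited (median 0.68) and 6 after scaling (median -0.07), and none was called. Among them RNPS1 of the exon junction complex had a scaled log2 fold change of 0.42 (SE 0.187), SRRM2 of nuclear speckles -1.06 (SE 0.679) and LUC7L3 of the U1 particle -0.08 (SE 0.244). Of 13 SR kinases, phosphatases and carriers 12 were above 0 as deposited and 5 after scaling, and none was called. For NXF1, the export receptor, the control values were 10.1, 1.81 and 1.23 FPKM, and after heat shock it was listed at 0, 0 and 1.202 FPKM, with an unadjusted p of 0.0203 and an adjusted p of 0.709 (limma). CLK4, a kinase of SR proteins, had 1.63, 0.712 and 1.43 FPKM against 4.59, 7.18 and 1.58 FPKM (unadjusted p = 0.0445, adjusted p = 0.709, limma). On the scaled values the unadjusted p was 0.0658 for NXF1 and 0.0825 for CLK4, whose log2 fold change went from 1.14 to 0.54 (adjusted p = 0.910 for both, limma). CLK2 was listed at 0 in heat shock 3 and at 8.31 to 77.7 FPKM elsewhere. The other abundant members of this list, PPP1CC and PPP1CA, had scaled log2 fold changes of -0.07 and -0.37.

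The listed splicing partners of SR proteins in the U1 and U2 particles had 9 of 10 genes tested. All 9 were above 0 as deposited and 4 after scaling (medians 0.80 and -0.07). U2AF1, RBM39 and SNRPA had scaled log2 fold changes of -0.07, 0.01 and 0.17. The hnRNP genes, which often oppose SR proteins, had 13 of 13 above 0 as deposited and 10 of 13 after scaling (medians 0.88 and 0.02). HNRNPA2B1, HNRNPH1 and HNRNPA1 had scaled values of 0.14, -0.60 and -0.01. None of these genes was called on either scale.

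Among the genes outside the family whose log2 levels followed the mean profile of the 10 most closely over the 6 libraries were RPS2, TPT1, RNASEK and SSB, with Pearson's r of 0.99986 to 0.99995. Of 2922 genes compared 1946 had r above 0.9, and all points share the library factor described above.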

How the data were processed

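RNA of 3 control and 3 heat shock HEK293 samples was depleted of ribosomal RNA with RiboMinus and made into TruSeq libraries. Per the study's methods and the submitters' processing notes, reads were checked with FastQC 0.10.1, trimmed with Trimmomatic 0.3.0, aligned to hg19 with TopHat2 and assembled with Cufflinks 2.0.2. The authors deposited 1 assembly per library with the FPKM of each transcript, and a merged Cuffdiff table with pooled FPKM per group. Fold changes and p-values of that table were not used. Read counts are not given, and relative depth was taken from the ratio of coverage to FPKM.

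RefSeq accessions were matched to symbols (39467 of 40803 by RefSeq, 546 by the gene name in the per-library assemblies). FPKM were summed by gene, assembled transcripts going to the 1 symbol of their group. Genes whose mean reached 1 FPKM were fitted on log2(FPKM + 1) with limma 3.58.1 (R 4.3.3, trend, Benjamini-Hochberg over all genes tested), a call needing an adjusted p under 0.05 and over 2-fold. Shares in percent were fitted the same way over all isoforms of genes with 2 or more RefSeq transcripts. Single values had exact two-sided permutation tests. Introns, exons and sequences were read from GRCh37 and GENCODE v44lift37, the same build as hg19. Scripts were tested on simulated data. Alternatives covered the pseudocount, scaling, filters, blocking and left-out libraries. Named were all members, isoforms with a mean share of at least 10%, all NR isoforms, the 3 most abundant genes of each list and the 5 genes most like the family, of which 1 is not reported here; DNAJB1, BAG3, PAX2, LHX1, the markers of other cell types, CLK4, NXF1, other isoforms and the assembled structures were named after their values were seen. The members and lists were chosen with earlier results of these data known. Same-numbered samples did not deviate together (r of 0.03, -0.33 and -0.38), so the numbers were not used as pairs.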

Additional observations from a re-analysis of the deposited data

How the results depend on the processing

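No SRSF gene was called under any of the 23 settings of the gene fit, and no SRSF isoform was called under any share fit (17 fitted, 13 with the annotated denominator and 15 to 17 with 1 library left out). At an unadjusted p under 0.05, 1 isoform (NM_006275 of SRSF6, where 1.57% of all shares were higher) and 2 of 57 pathway genes passed (CLK4 and NXF1, where 2.06% of all genes were higher and 1.63% lower). NM_001195427 of SRSF2 also passed that level with a gene minimum of 10 FPKM, with no trend and without heat shock 3. Without heat shock 3 it was passed by 42 of 57 pathway genes, where 39.8% of all genes were higher. The sign of 2 genes depended on the scaling. With abundant-gene factors the log2 fold change was -0.029 for SRSF2 and -0.22 for SRSF9, with or without the replicate block, and rescaling to TPM gave -0.10 for SRSF9. RefSeq transcripts alone gave -1.33 for SRSF11. Leaving out 1 library on the scaled values gave -0.068 to 0.19 for SRSF4, -0.12 to 0.19 for SRSF10 and -0.0030 to 0.13 for SRSF11. The causes were not tested. The adjusted p-values of the 10 genes ran from 0.663 to 0.985 over the settings with all libraries. Over all genes the replicate block called 11 higher and 5 lower against 2 and 1 without it. With the replicate block the number of SRSF genes called stayed at 0, as did the numbers for composition, isoform shares and structure shares, where 3 pairs cannot reach an exact p below 0.25. Without a trend 3 isoform shares of all genes were called higher and 1 lower, against 0 and 0, none of them SRSF. No read counts were used, so no counting limit can be set on isoforms listed at 0.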
